A study of Mus musculus with 2 samples.

Results

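The transcription factors *Sox10*, *Olig1*, *Olig2*, *Myrf*, *Nkx6-2*, *Nkx2-2*, *Zfp488*, *St18* and *Sox8*, which mark or direct the oligodendrocyte lineage, were followed in single nuclei of mouse brain 12 h after subarachnoid haemorrhage (SAH). They were taken by symbol, and all 9 were found among the 32285 genes counted. In oligodendrocyte nuclei the factors separated. *Sox10*, *Olig1* and *Sox8* took a share of the nuclear RNA that was 2.35, 2.95 and 2.76 times lower in SAH than in Normal, and each was lower beyond counting error, though not by the same fold, in all 5 oligodendrocyte subtype gates. Short genes were lower in SAH in general. Relative to genes of like length the 3 were still lower over oligodendrocyte nuclei as a whole, but none by 2-fold. Within the gates they were not set against genes of like length. *Myrf* and *Zfp488* did not differ beyond counting error. The other 4 factors were lower by smaller amounts. For *Olig2* and *Nkx6-2* the sign of the value turned when set against genes of like length, but not beyond counting error.

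The study compared a library named Normal with a library named SAH. Each was made from nuclei of the pooled tissue of 3 male mice, labelled as 6 to 8 weeks old, where the study's methods name C57BL/6J mice of a somewhat older range. The tissue was the hemisphere on the injured side, or the matching hemisphere of Normal mice, between the medial prefrontal cortex and the central lateral thalamus. SAH mice had an artery at the base of the brain perforated with a filament 12 h before. The labels call the control mice normal, while the methods describe sham surgery without perforation, so whether these mice were operated on is not settled. With 1 library per group there was no replicate, and no difference could be tested. Mice could not be told apart within a pool, and library and group cannot be told apart.

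Oligodendrocytes wrap axons in myelin and arise from precursors that carry the receptor *Pdgfra*. OLIG1 and OLIG2 are basic helix-loop-helix proteins; OLIG2 sets up the lineage, and OLIG1 is needed for full maturation and repair. SOX10, with its close relative SOX8, is an HMG-box protein present from precursor to mature cell, where it switches on myelin genes together with MYRF, a membrane-anchored factor that is cut free to enter the nucleus once a cell differentiates. NKX2-2 and NKX6-2 are homeodomain proteins that act at the step from precursor to myelinating cell. ZFP488 is a zinc finger protein that works with OLIG2, and ST18 is a zinc finger protein of the MYT family.

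By the GENCODE annotation of GRCm38, *Olig1* (ENSMUSG00000046160, chr16:91269772-91271933, plus strand) has a single exon and lies 41.1 kb from *Olig2* (ENSMUSG00000039830, chr16:91225457-91228677, plus strand). *Sox10* (ENSMUSG00000033006, chr15:79154908-79165240, minus strand) is 10.3 kb long, *Sox8* (ENSMUSG00000024176, chr17:25565892-25570686, minus strand) 4.79 kb, *Nkx6-2* (ENSMUSG00000041309, chr7:139579376-139582797, minus strand) 3.42 kb and *Nkx2-2* (ENSMUSG00000027434, chr2:147177546-147194243, minus strand) 16.7 kb. *Zfp488* (ENSMUSG00000044519, chr14:33967070-33978764, minus strand) is 11.7 kb long, *Myrf* (ENSMUSG00000036098, chr19:10208272-10240748, minus strand) 32.5 kb, and *St18* (ENSMUSG00000033740, chr1:6487231-6860940, plus strand) 374 kb. *Olig1*, *Nkx6-2*, *Nkx2-2* and *Sox8* each overlap at least 1 gene annotated on the opposite strand, and none of the 9 overlaps a gene on its own strand.

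RefSeq gave a promoter (250 bases before to 50 after the start, GRCm38.p6) for 5 of the 9 factors. Of these, 4 are printed 5′ to 3′ on the strand of the gene, because *Nkx2-2* and *Sox8* were lower in SAH beyond counting error also when centred on genes of like length, *Olig2* only before that centring, and *Zfp488* neither way. Capitals mark matches, on either strand, to ACAAAG or ACAATG, which SOX proteins bind, to the E-box CAGCTG, which helix-loop-helix proteins bind, or to CAAGTG, which NKX2 proteins bind.
Olig2, chr16:91225300-91225599: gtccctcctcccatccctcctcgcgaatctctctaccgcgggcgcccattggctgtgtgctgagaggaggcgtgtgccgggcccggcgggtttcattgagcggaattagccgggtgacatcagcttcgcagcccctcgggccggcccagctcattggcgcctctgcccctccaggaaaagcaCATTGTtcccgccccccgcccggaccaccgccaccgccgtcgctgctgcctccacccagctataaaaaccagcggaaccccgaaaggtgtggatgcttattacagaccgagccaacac
Nkx2-2, chr2:147186353-147186652: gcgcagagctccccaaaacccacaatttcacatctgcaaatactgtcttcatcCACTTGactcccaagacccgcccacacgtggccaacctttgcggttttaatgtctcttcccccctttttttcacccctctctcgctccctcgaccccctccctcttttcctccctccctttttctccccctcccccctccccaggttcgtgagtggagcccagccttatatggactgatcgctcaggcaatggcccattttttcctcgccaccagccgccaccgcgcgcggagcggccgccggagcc
Zfp488, chr14:33978715-33979014: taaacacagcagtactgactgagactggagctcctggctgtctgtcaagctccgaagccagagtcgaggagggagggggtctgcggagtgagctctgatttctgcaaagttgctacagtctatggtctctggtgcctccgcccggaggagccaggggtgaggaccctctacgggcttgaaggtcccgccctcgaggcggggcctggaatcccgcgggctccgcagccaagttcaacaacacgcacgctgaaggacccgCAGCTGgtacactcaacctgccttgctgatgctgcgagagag
Sox8, chr17:25570637-25570936: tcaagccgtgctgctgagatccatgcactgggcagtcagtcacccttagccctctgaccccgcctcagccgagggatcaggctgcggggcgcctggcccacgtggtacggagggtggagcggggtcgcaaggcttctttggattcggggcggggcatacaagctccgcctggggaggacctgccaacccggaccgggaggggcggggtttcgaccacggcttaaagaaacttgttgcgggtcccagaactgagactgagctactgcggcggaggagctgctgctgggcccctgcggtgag
The *Olig2* promoter held ACAATG on the opposite strand from base -68, the *Nkx2-2* promoter CAAGTG on the opposite strand from base -197, and the *Zfp488* promoter CAGCTG from base 9, counted from the start. The *Sox8* and *Nkx6-2* promoters held none of the 4. The *Nkx2-2* promoter lies wholly within the annotated span of its gene, so the start used is not the 5′ end of that span. Over 32851 promoters of the same length, ACAAAG was found in 18.7%, ACAATG in 12.6%, CAGCTG in 16.3% and CAAGTG in 13.6%. GC content was 65.0% in *Olig2*, 66.7% in *Nkx6-2*, 59.7% in *Nkx2-2*, 61.3% in *Zfp488* and 66.3% in *Sox8*, above the median of 52.7% over all promoters.

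The Normal library held 12204 nuclei with 114970719 unique molecular identifiers (UMIs), and the SAH library 18209 nuclei with 172604358 UMIs. Of these, 10955 and 15536 nuclei were kept. A nucleus was gated as an oligodendrocyte by its share of UMIs from 8 marker genes, none of them a factor. The gate took 1651 Normal nuclei (15.1% [14.4, 15.8] of those kept) and 3374 SAH nuclei (21.7% [21.1, 22.4]), with medians of 1932 and 2226.5 UMIs. All 8 markers were present in both libraries, and 6 were lower and 2 higher in SAH. Their presence was fixed by the gate and is no check of the cell type. *Mag*, which encodes an adhesion protein of myelin, was lower in SAH by a log2 ratio of -1.06, and *Mobp*, another myelin gene, was higher by 0.40. Within the gate, all 7 neuronal markers were seen, at a summed 1804 CPM in Normal and 1717 CPM in SAH. All 6 microglial markers were seen too, at 90.5 and 73.9 CPM, and all 5 inhibitory neuron markers at 153 and 260 CPM. The part of such RNA in the values below was not tested. The median Scrublet doublet score in the gate was 0.0331 in Normal and 0.0777 in SAH. The libraries shared 78 barcodes, with 32 gated oligodendrocytes among their nuclei. The libraries stood apart, since unintegrated clustering placed 1627 Normal and 14 SAH nuclei in 1 oligodendrocyte-like cluster and 3 Normal and 2284 SAH nuclei in another. Levels are given as CPM, the UMIs of a gene per 1000000 UMIs of all nuclei of a class. Brackets hold 95% intervals, exact Poisson for CPM, exact binomial for shares and exact conditional binomial for log2 ratios of SAH over Normal, and cover counting error only. CPM are not scaled by gene length, so levels are compared between libraries and classes and not between genes.

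Normal oligodendrocytes held 997 UMIs of *Sox10*, or 274 CPM [258, 292], and SAH oligodendrocytes 965, or 117 CPM [109, 124]. The log2 ratio was -1.23 [-1.36, -1.10], although the SAH library held more than 2 times as many oligodendrocyte UMIs. *Sox8*, the other SOX factor, had 403 UMIs in Normal (111 CPM [100.3, 122]) and 332 in SAH (40.2 CPM [36.0, 44.7]), which gave -1.46 [-1.68, -1.25]. *Olig1* had 513 UMIs in Normal (141 CPM [129, 154]) and 395 in SAH (47.8 CPM [43.2, 52.7]). Its log2 ratio of -1.56 [-1.76, -1.37] was the lowest of the 9. For each of these factors the intervals of the libraries lay far apart. Without the shared barcodes the log2 ratios were -1.23 for *Sox10*, -1.46 for *Sox8* and -1.58 for *Olig1*. By depth of the nuclei, chosen after the data were seen, *Sox10* stood at -1.19 in the shallowest, -1.23 in the middle and -1.25 in the deepest class, and *Olig1* at -1.59, -1.49 and -1.43. *Sox8* varied more, with -1.59, -1.75 and -1.12.

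The neighbour of *Olig1*, *Olig2*, did not share a difference of that size. It lay at 29.4 CPM [24.1, 35.6] in Normal and 22.4 CPM [19.3, 25.8] in SAH, from 107 and 185 UMIs, a log2 ratio of -0.40 [-0.75, -0.04]. Centred on genes of like length, *Olig2* stood at 0.17, not beyond counting error. By depth of the nuclei it stood at -0.33 [-1.10, 0.44] in the shallowest, 0.19 [-0.55, 0.99] in the middle and -0.71 [-1.21, -0.20] in the deepest class. The homeodomain factors were both lower. *Nkx2-2* lay at 20.9 CPM [16.5, 26.2] and 11.7 CPM [9.51, 14.3], from 76 and 97 UMIs, a log2 ratio of -0.83 [-1.28, -0.38]. *Nkx6-2* lay at 64.1 CPM [56.1, 72.9] and 49.95 CPM [45.2, 55.0], and its log2 ratio of -0.36 [-0.60, -0.12] turned to 0.19 when centred on genes of like length.

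Of *Myrf* there were 590 UMIs in Normal (162 CPM [149, 176]) and 1414 in SAH (171 CPM [162, 180.2]). The levels overlapped, and the interval of the log2 ratio (0.08 [-0.06, 0.22]) leaves room for a decrease of at most 0.06 on the log2 scale at this depth. *Zfp488* lay at 10.7 CPM [7.63, 14.7] and 10.4 CPM [8.32, 12.8], from 39 and 86 UMIs. Its log2 ratio was -0.05 [-0.61, 0.54], an interval too wide to tell a change of moderate size from none. *St18* gave the most UMIs, 12396 in Normal and 25635 in SAH, and stood at 3410 CPM [3350, 3471] and 3100.5 CPM [3063, 3139]. Its log2 ratio was -0.14 [-0.17, -0.11], a small difference made visible by the number of UMIs.

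**Figure D1:**
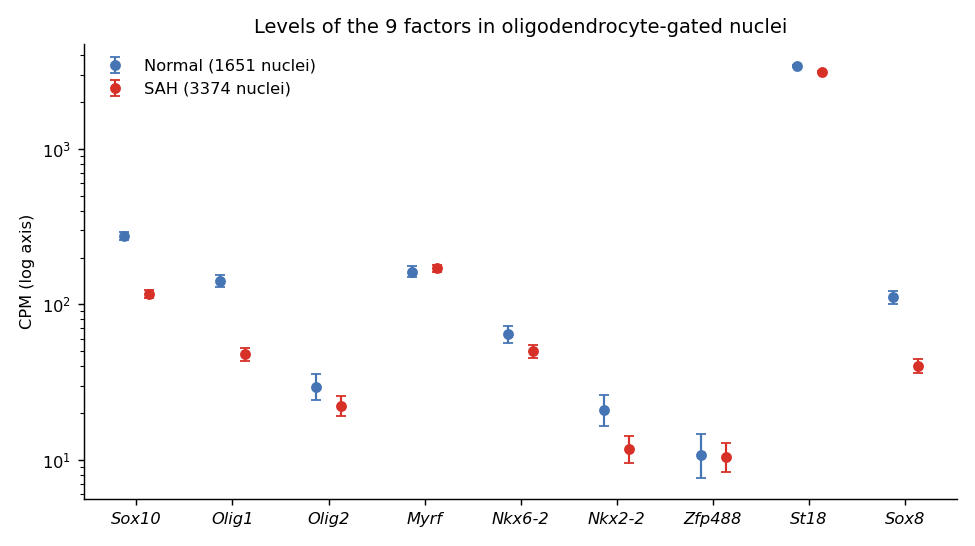
CPM of each factor (log axis) in oligodendrocyte-gated nuclei of the Normal (blue, 1651 nuclei) and SAH (red, 3374 nuclei) libraries, with exact 95% Poisson intervals for counting error. *Sox10*, *Olig1* and *Sox8* stand well apart between libraries, from 274 to 117, 141 to 47.8 and 111 to 40.2 CPM, while *Myrf*, *Zfp488* and *Olig2* overlap. Levels are not scaled by gene length.

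In all, 7 of the 9 factors had an interval below 0, against 27.9% of the 11286 genes with at least 50 UMIs in the gate, and 0 had one above 0, against 23.8%. At least 2-fold lower were 3 of the 9, against 5.99% of all genes, and at least 2-fold higher were 0, against 7.83%. The median log2 ratio was -0.40 over the factors and -0.06 over all genes. Of all genes, 0.771% had a lower log2 ratio than *Olig1*, 1.17% than *Sox8*, 2.73% than *Sox10* and 9.47% than *Nkx2-2*, but 26.98% than *Olig2*, 28.9% than *Nkx6-2* and 44.2% than *St18*. *Zfp488* and *Myrf* lay above 51.1% and 60.3% of all genes.

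The log2 ratio moved with gene length over all genes of the gate. Its median was -0.60 over 950 genes under 5 kb, of which 25.2% were at least 2-fold lower, and -0.29 over 3299 genes of 5 to 20 kb. It was 0.01 over 4995 genes of 20 to 100 kb and 0.18 over 2040 longer genes. *Olig1*, *Olig2*, *Nkx6-2* and *Sox8* belong to the shortest class, and *Sox10*, *Nkx2-2* and *Zfp488* to the next. The 500 genes nearest in length to *Olig1* had a median of -0.64, those nearest to *Sox8* -0.51 and those nearest to *Sox10* -0.32. Relative to these medians *Olig1* stood at -0.93, *Sox8* at -0.95 and *Sox10* at -0.92, so that these factors were still lower but none by 2-fold. *Nkx2-2* stood at -0.65 and *St18* at -0.36 against their own length classes, while *Myrf* (0.08), *Olig2* (0.17), *Nkx6-2* (0.19) and *Zfp488* (0.25) stood slightly above them. With this centring, chosen after the data were seen, 5 factors kept an interval below 0. No share over all genes was computed with this centring, so that count is not compared with a background. The part of gene length in these differences was not tested.

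**Figure D2:**
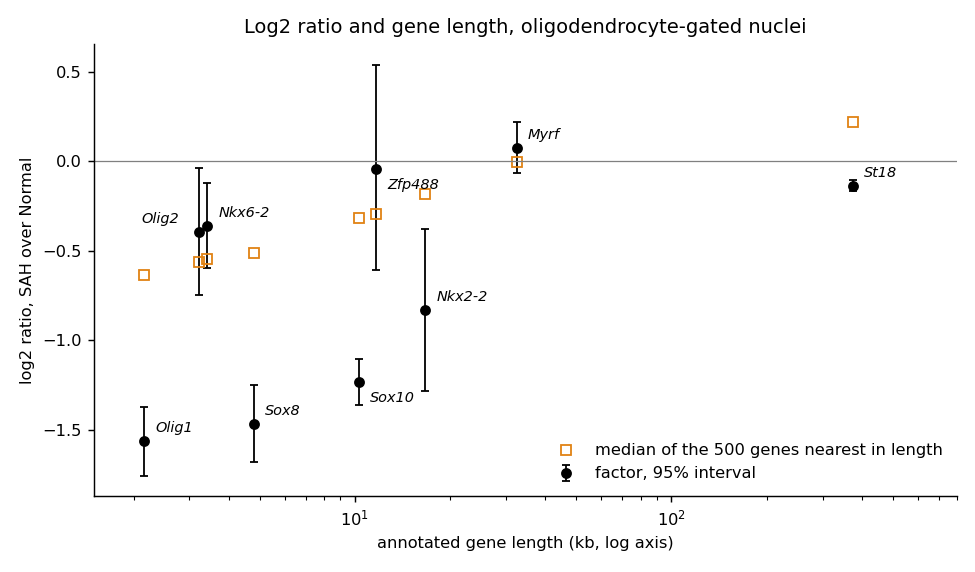
Log2 ratio of SAH over Normal in oligodendrocyte-gated nuclei (vertical axis) against annotated gene length in kb (log axis). Black points are the 9 factors with exact 95% intervals, and open squares give, for each factor, the median over 500 genes closest to it in length. *Olig1*, *Sox8* and *Sox10* lie 0.92 to 0.95 below their squares, and *Olig2* and *Nkx6-2* lie close to theirs.

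Gated oligodendrocytes were divided by genes that mark known subtypes: *Opalin*, a myelin membrane protein gene; *Il33*, which encodes an alarmin; and *Anln* or *Hapln2*, a cytoskeletal and a perinodal matrix protein gene. Nuclei with UMIs of more than 1 of these, or of none, formed the remaining gates. The *Opalin* gate held 196 Normal and 235 SAH nuclei, the *Il33* gate 125 and 246, the *Anln* and *Hapln2* gate 380 and 1425, the gate with several 769 and 941, and the gate with none 181 and 527. The mix differed, with 11.9% [10.3, 13.5] of Normal and 6.97% [6.13, 7.88] of SAH oligodendrocytes in the *Opalin* gate and 23.0% [21.0, 25.1] and 42.2% [40.6, 43.9] in the *Anln* and *Hapln2* gate. The gate with several held 46.6% and 27.9%. With gates that may overlap, nuclei with *Anln* or *Hapln2* made up 60.9% [58.5, 63.2] and 66.3% [64.7, 67.9], those with *Opalin* 48.6% and 22.1%, and those with *Il33* 40.3% and 28.3%. The exclusive shares thus depend on which other gate genes were seen in a nucleus. *Opalin*, which sets a gate, was itself lower in SAH over all gated oligodendrocytes, and a lower level per nucleus and fewer *Opalin* nuclei were not told apart. With the Normal mix applied to both libraries the log2 ratios were -1.20 for *Sox10*, -1.505 for *Olig1* and -1.49 for *Sox8*.

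The intervals of *Sox10*, *Olig1* and *Sox8* lay below 0 in 5 of 5 gates, which no other factor reached. The gates split the same libraries, and the share of all genes that lay below 0 in all 5 was not computed. Ratios within the gates were not centred on genes of like length. *Sox10* kept to a narrow band, with 288 and 120.2 CPM in the *Opalin* gate (log2 ratio -1.26 [-1.65, -0.88]), 319 and 121 CPM in the *Il33* gate (-1.40 [-1.90, -0.89]) and 238 and 108 CPM in the *Anln* and *Hapln2* gate (-1.15 [-1.40, -0.88]). *Olig1* spread more widely. It stood at 150.1 and 70.8 CPM in the *Opalin* gate (-1.09 [-1.61, -0.57]), 119.7 and 60.7 CPM in the *Il33* gate (-0.98 [-1.76, -0.19]) and 150.2 and 38.0 CPM in the *Anln* and *Hapln2* gate (-1.98 [-2.35, -1.61]). *Sox8* stood at 92.2 and 52.1 CPM in the *Opalin* gate (-0.83 [-1.47, -0.20]), 111 and 34.9 CPM in the *Il33* gate (-1.67 [-2.61, -0.75]) and 135 and 40.6 CPM in the *Anln* and *Hapln2* gate (-1.73 [-2.11, -1.35]). The intervals of *Olig1* in the *Opalin* and the *Anln* and *Hapln2* gates just overlapped, and the difference between gates was not tested.

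*Myrf*, *Olig2* and *Zfp488* had an interval that held 0 in all 5 gates. The log2 ratios of *Myrf* stayed between -0.08 and 0.18, those of *Olig2* ran from -0.44 to 0.22, and those of *Zfp488*, with 3 to 26 UMIs per gate and library, from -0.42 to 0.82. *St18* was lower in the *Opalin* gate (3882 and 3403 CPM) and in the *Anln* and *Hapln2* gate (3273 and 2873 CPM), and its interval held 0 in the other 3. *Nkx6-2* was lower beyond counting error in the *Il33* gate alone, at 75.3 and 29.4 CPM from 17 and 16 UMIs. *Nkx2-2* was so in the *Opalin* gate, from 11 and 4 UMIs, and in the gate with several. With gates that may overlap, *Nkx6-2* stood at -0.35 [-0.77, 0.07] in the *Il33* gate. In the *Anln* and *Hapln2* gate it was then lower (-0.37 [-0.67, -0.07]), as were *Nkx2-2* (-0.76 [-1.29, -0.21]) and *Olig2* (-0.53 [-0.99, -0.05]). *St18* was then higher in the *Il33* gate (0.055 [0.005, 0.106]). Of the 45 pairs of factor and exclusive gate, 20 had an interval below 0 and 0 above 0. The background for an interval below 0 was 15% of the genes tested in the *Opalin* gate, 12.4% in the *Il33* gate, 20% in the *Anln* and *Hapln2* gate, 22.4% in the gate with several and 15.3% in the gate with none. For an interval above 0 it was 17.6%, 19.6%, 16.5%, 20.9% and 16.7% in the same order. The genes tested had at least 50 UMIs in the gate, whereas all 45 pairs were counted, some with fewer UMIs.

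**Figure D3:**
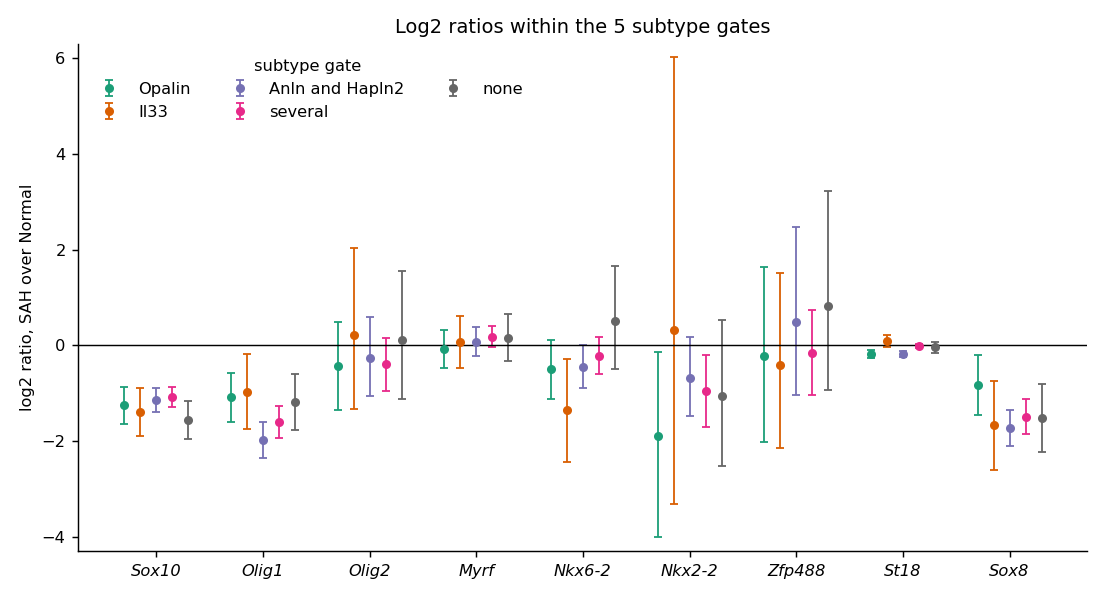
Log2 ratio of SAH over Normal for each factor within 5 exclusive oligodendrocyte subtype gates (colours), with exact 95% intervals for counting error. The 15 intervals of *Sox10*, *Olig1* and *Sox8* all lie below the line at 0, while those of *Myrf*, *Olig2* and *Zfp488* all cross it. Wide intervals reflect few UMIs, as for *Nkx2-2* in the *Il33* gate with 1 and 3 UMIs.

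In Normal, *Sox10* was a little higher in the *Il33* than in the *Anln* and *Hapln2* gate (log2 ratio 0.42 [0.01, 0.82]), and the interval of each other contrast of *Sox10* between these 3 gates held 0. Among the *Opalin*, *Il33*, and *Anln* and *Hapln2* gates, *St18* stood highest in the *Opalin* gate of both libraries, though in SAH not beyond counting error over the *Il33* gate (log2 ratio of *Il33* over *Opalin* -0.07 [-0.16, 0.02]). It had log2 ratios of the *Anln* and *Hapln2* gate over it of -0.25 [-0.33, -0.16] in Normal and -0.24 [-0.31, -0.18] in SAH. *Olig1* was even between the same gates in Normal (0.00 [-0.42, 0.42]) and lower in the *Anln* and *Hapln2* gate in SAH (-0.90 [-1.37, -0.41]). Nuclei with at least 2 UMIs of *Gpr17*, *Enpp6*, *Bmp4* or *Neu4*, genes of newly formed oligodendrocytes, numbered 103 in Normal and 139 in SAH. Among them *Sox10* was at 309 and 110 CPM (-1.48 [-1.99, -0.99]), *Sox8* at 134 and 42.5 CPM (-1.65 [-2.49, -0.86]), *Olig1* at 89.1 and 25.5 CPM (-1.81 [-2.91, -0.80]) and *Myrf* at 149 and 106 CPM (-0.48 [-1.08, 0.11]). In these nuclei *Enpp6* lay at 850 and 784 CPM, *Gpr17* at 107 and 10.6, *Bmp4* at 47.5 and 6.37, and *Neu4* at 17.8 and 2.12. *Enpp6* thus gave most of the UMIs that picked them, and the nuclei picked in the libraries were not alike. They also held *Anln* at 841 and 1173 CPM and *Hapln2* at 333 and 295 CPM, so they are not read as newly formed oligodendrocytes alone.

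To compare shares of nuclei with a UMI, 1000 UMIs were drawn from every nucleus, and 112 Normal and 73 SAH oligodendrocytes with fewer were left out. A UMI of *Sox10* was then found in 23.1% [21.0, 25.3] of 1539 Normal and 11.03% [9.98, 12.1] of 3301 SAH nuclei, against 41.0% and 23.2% without thinning. For *Olig1* the thinned shares were 12.5% [10.9, 14.3] and 4.67% [3.97, 5.44], and for *Sox8* 10.7% [9.22, 12.4] and 3.91% [3.27, 4.63]. In neurons, which should lack *Sox10*, the thinned share was 0.0709% in Normal and 0.0114% in SAH, far below that in oligodendrocytes. Before thinning, the median depth was 11336 and 13000.5 UMIs in excitatory and 8312 and 9915 UMIs in inhibitory neurons. *St18* was found in 90.3% [88.7, 91.8] and 86.9% [85.7, 88.0] of thinned nuclei, and the other 5 factors had overlapping intervals. With 500 UMIs drawn instead, the intervals of *St18* overlapped too, at 72.0% [69.8, 74.2] and 69.1% [67.5, 70.6]. Such shares were not computed over all genes for comparison. At 1000 UMIs, nuclei without a UMI of any factor but *St18* made up 44.8% [42.3, 47.4] of thinned Normal and 62.5% [60.8, 64.1] of thinned SAH oligodendrocytes. Those with UMIs of 2 of these factors made up 13.9% [12.2, 15.7] and 5.66% [4.90, 6.51].

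Precursor-gated nuclei were few, 24 in Normal and 48 in SAH, with 85717 and 302679 UMIs. All 7 precursor markers were present in both, but *Pdgfra* lay at 1470 CPM in Normal and 505 CPM in SAH, and 11 of the 48 SAH nuclei held no UMI of *Pdgfra* or *Cspg4*. The 7 neuronal markers summed to 1738 CPM in the Normal and 2957 CPM in the SAH precursor gate, and their part was not tested. *Olig1* was at 292 CPM [189, 431] in Normal and 52.9 CPM [30.2, 85.8] in SAH, from 25 and 16 UMIs, and *Olig2* at 128 CPM [64.1, 229.6] and 16.5 CPM [5.36, 38.6], from 11 and 5 UMIs. *Sox8* was at 163 CPM [89.3, 274] and 36.3 CPM [18.1, 65.0] and *Sox10* at 233 CPM [143, 360.4] and 95.8 CPM [64.2, 138]. These 4 had an interval below 0, against 10% of 5925 genes with at least 10 UMIs, and 0 had one above 0, against 9.01%. *Myrf*, *Nkx6-2*, *Nkx2-2* and *Zfp488* had fewer than 10 UMIs. With *Pdgfra* or *Cspg4* required, which left 24 and 37 nuclei, the log2 ratios were -1.45 [-2.45, -0.48] for *Olig1* and -1.94 [-3.82, -0.30] for *Olig2*, but -1.15 [-2.43, 0.10] for *Sox8* and -0.27 [-1.14, 0.63] for *Sox10*. All SAH UMIs of *Olig1* (16), *Olig2* (5), *Sox8* (11) and *Sox10* (29) lay in these 37 nuclei. The 11 nuclei left out held none of them and lowered their SAH CPM in the gate. Without these 11 nuclei *Olig1* stood at 107, *Olig2* at 33.5, *Sox8* at 73.6 and *Sox10* at 194 CPM in SAH. The 11 thus held a large part of all SAH UMIs of the gate. With the cluster that held the precursors in place of the gate, a mixed cluster of 93 Normal and 97 SAH nuclei in which 5 of 7 vascular and 4 of 6 astrocyte markers also stood above their usual cluster level, *Olig1* stood at -0.50 and *Olig2* at -0.30, so the sizes in precursors are not settled by these nuclei.

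In Normal, precursors exceeded oligodendrocytes in *Olig2* by a log2 ratio of 2.12 [1.08, 3.02] and in *Olig1* by 1.05 [0.41, 1.63], while *Sox10*, *Sox8*, *Nkx2-2* and *Zfp488* had intervals that held 0. In SAH the intervals of *Olig1* (0.15 [-0.68, 0.86]) and *Olig2* (-0.44 [-2.08, 0.81]) held 0 as well. With *Pdgfra* or *Cspg4* required, however, *Olig1* stood at 107 CPM [61.2, 174] in SAH precursors, above the interval of SAH oligodendrocytes, and *Olig2* at 33.5 CPM [10.9, 78.1], which overlapped theirs. *Myrf* was lower in precursors than in oligodendrocytes in both libraries (-3.80 and -4.11), as was *St18* (-7.19 and -6.41). *Nkx6-2* had 0 UMIs in the precursors of both libraries, which, with 3 counts taken as the most that a count of 0 allows, leaves room for up to 35.0 CPM in Normal and 9.91 CPM in SAH.

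In microglia and both neuron classes the factors stood at lower CPM than in oligodendrocytes, but the share of their UMIs outside oligodendrocytes differed between factors. Oligodendrocytes held 89.3% of the *Sox10* UMIs of all kept nuclei in Normal and 91.0% in SAH, and 86.3% and 88.9% of those of *St18*. For *Sox8* these shares were 44.1% and 60.1%, the lowest of the 9 in each library. Excitatory-gated nuclei (4471 in Normal and 5938 in SAH) held 355 UMIs of *Sox8* and 16 of *Sox10* in Normal, where oligodendrocytes held 403 and 997, so *Sox8* and *Sox10* did not keep the same ratio between classes. In these nuclei *Sox8* was at 5.96 CPM [5.35, 6.61] in Normal and 1.92 CPM [1.63, 2.24] in SAH (-1.64 [-1.91, -1.36]). In inhibitory-gated nuclei (2596 and 2821) it was at 3.00 CPM [2.36, 3.75] and 0.784 CPM [0.502, 1.17] (-1.94 [-2.66, -1.26]). The interval of *Sox8* thus lay below 0 in both neuron classes. In microglia-gated nuclei, however, *Sox8* was at 3.68 CPM [1.00, 9.42] in Normal and 0.951 CPM [0.115, 3.44] in SAH, from 4 and 2 UMIs. These intervals overlap those of both neuron classes, and the part of background RNA in the neuron values was not tested. Of all genes tested there, 45.4% in excitatory and 46.9% in inhibitory nuclei had an interval below 0, and 28.2% and 21.1% one above 0. Genes there had a median log2 ratio below 0, at -0.11 for the excitatory and -0.17 for the inhibitory class. Of the clusters outside the lineage, *Sox8* was highest per UMI in an excitatory-like cluster led by *Ush1c*, at 31.4 CPM in Normal and 6.21 CPM in SAH, from 12 and 8 UMIs. It was next highest in an inhibitory-like cluster with *Drd2* and *Adora2a* among its leading genes, at 20.4 CPM in Normal and 3.44 CPM in SAH, from 36 and 8 UMIs.

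*Olig1* stood at 1.24 CPM in Normal and 0.876 CPM in SAH in excitatory nuclei and at 2.21 and 1.18 CPM in inhibitory nuclei. Its log2 ratio was -0.50 [-0.99, -0.02] in excitatory and -0.91 [-1.56, -0.28] in inhibitory nuclei, where 45.4% and 46.9% of the genes tested had an interval below 0. In microglia-gated nuclei (662 and 1077) it lay at 8.28 CPM [3.79, 15.7] and 2.85 CPM [1.05, 6.21], from 9 and 6 UMIs, and the interval of its log2 ratio held 0, where 18.1% of the genes tested had one below 0 and 22.1% one above 0. The levels of *Olig1* in neurons were below those in microglia, which should lack it, and in Normal the intervals did not overlap. In SAH they did, at [0.688, 1.10] in excitatory, [0.823, 1.63] in inhibitory and [1.05, 6.21] in microglia-gated nuclei. The part of background RNA in these *Olig1* values was not tested. *Myrf* stood at 0.829 and 1.44 CPM in inhibitory nuclei, against 1.84 and 1.43 CPM in microglia, from 2 and 3 UMIs there. Its log2 ratio in inhibitory nuclei was 0.79 [0.01, 1.62], where 21.1% of the genes tested had an interval above 0. The part of background RNA in these *Myrf* values was not tested. *St18* (26.7 and 29.8 CPM) was slightly higher in the inhibitory nuclei of SAH, by a log2 ratio of 0.16 [0.02, 0.31]. *St18* had sources of its own among neurons. Over both libraries it reached 206 CPM [192, 221] in an unnamed cluster led by *Glis3*, *Dsp* and *C1ql2* (476 nuclei) and 204 CPM [179, 231] in an inhibitory-like cluster led by *Egfr* (103 nuclei), against a median of 8.44 CPM over the clusters outside the lineage. In the *Glis3* cluster it was 209.8 CPM in Normal and 204 CPM in SAH, and in the *Egfr* cluster 213 and 193 CPM.

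**Figure D4:**
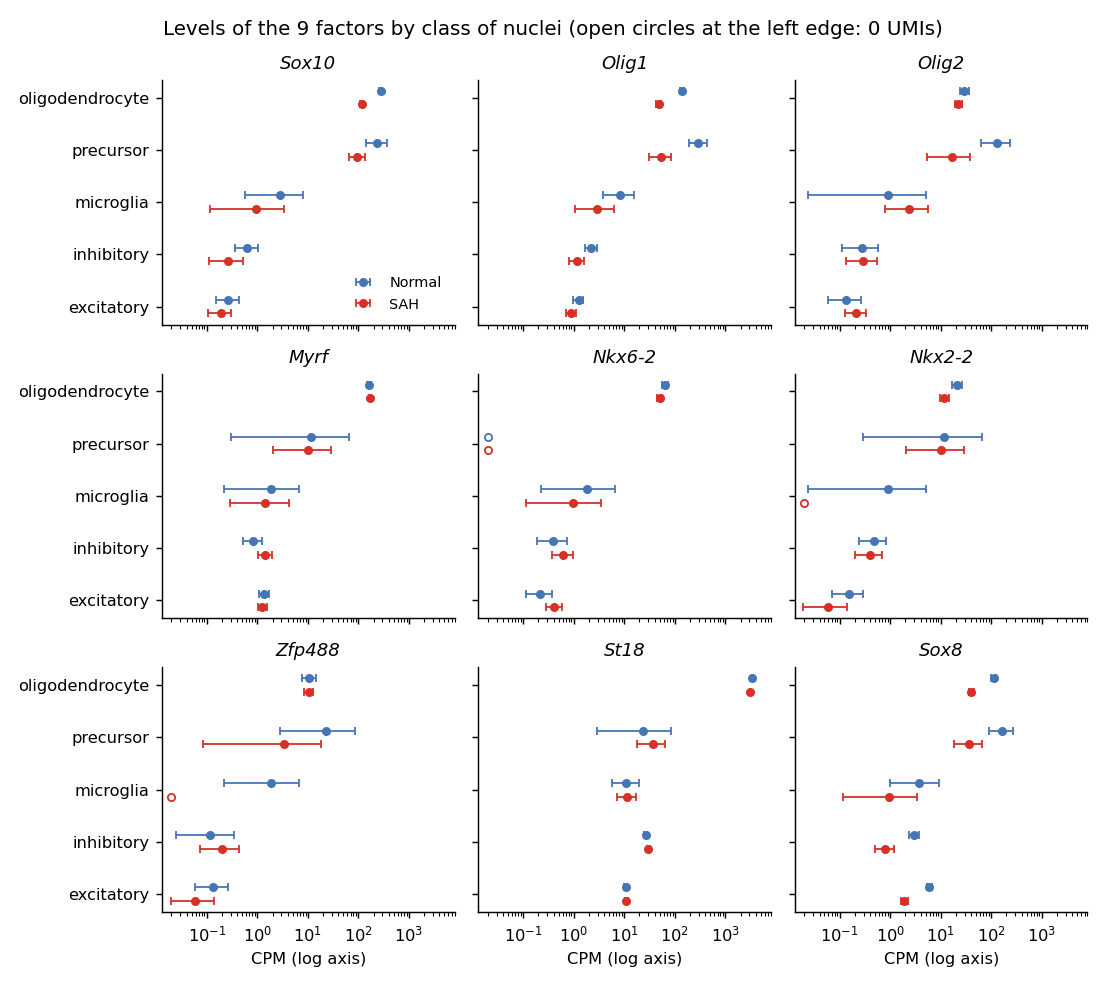
CPM (log axis) of each factor by class of nuclei in Normal (blue) and SAH (red), with exact 95% Poisson intervals, and open circles at the left edge for 0 UMIs. All 9 factors are highest in oligodendrocytes or precursors, *Nkx6-2* has 0 UMIs in precursors, and *Sox8* is lower in SAH in both neuron classes (5.96 to 1.92 and 3.00 to 0.784 CPM). *Olig1* is lower there too (1.24 to 0.876 and 2.21 to 1.18 CPM). The intervals of *Sox8* in microglia overlap those in both neuron classes.

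Target genes of the lineage factors, a list of 16 written from general knowledge of SOX10 and MYRF, were mostly lower. The list was chosen with earlier results of these data known, so the counts below are no independent check. All 16 were tested, 15 had an interval below 0 (27.9% of all genes) and 0 above 0 (23.8%), 6 were at least 2-fold lower (5.99%), and the median log2 ratio was -0.76, against -0.06 over all genes. Target genes were not set against genes of like length, and the part of gene length in these values was not tested. *Opalin*, which also set a subtype gate, stood at 419 and 147 CPM (-1.51 [-1.62, -1.40]). *Rffl*, a ubiquitin ligase gene, was the gene whose interval held 0 (-0.06 [-0.17, 0.04]).

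A list of 20 other regulators of oligodendrocyte differentiation had as many intervals below 0 as above 0. Of 19 tested, 7 lay below 0 and 7 above 0, where the shares over all genes were 27.9% and 23.8%, with a median of -0.08 against -0.06. The highest ratios were those of *Klf9*, a factor induced by glucocorticoids and thyroid hormone, at 103 and 246 CPM (1.25 [1.10, 1.42]), and *Nfia*, a glial nuclear factor, at 591 and 996 CPM (0.75 [0.68, 0.82]). The lowest were those of the histone deacetylase genes *Hdac2*, at 41.3 and 20.6 CPM (-1.005 [-1.33, -0.68]), and *Hdac3*, at 32.7 and 17.9 CPM (-0.87 [-1.23, -0.51]). *Myrfl* had 9 and 5 UMIs and was not tested.

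Of 16 regulators of the precursor stage, 6 reached 50 UMIs in the gate, with 2 intervals below 0 (27.9% of all genes), 2 above 0 (23.8%) and a median of 0.02. *Sox5* (36.9 and 55.2 CPM, 0.58 [0.30, 0.87]) and *Zfp536* (1559 and 1940.1 CPM, 0.32 [0.27, 0.36]) were higher. *Sox6*, which with SOX5 keeps precursors from maturing early, was lower (26.96 and 8.47 CPM, -1.67 [-2.13, -1.21]), and *Id2* stood at 9.08 and 7.02 CPM (-0.37 [-1.01, 0.29]). The other 10, among them *Sox4*, *Sox9* and *Hes5*, were too rare.

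**Figure D5:**
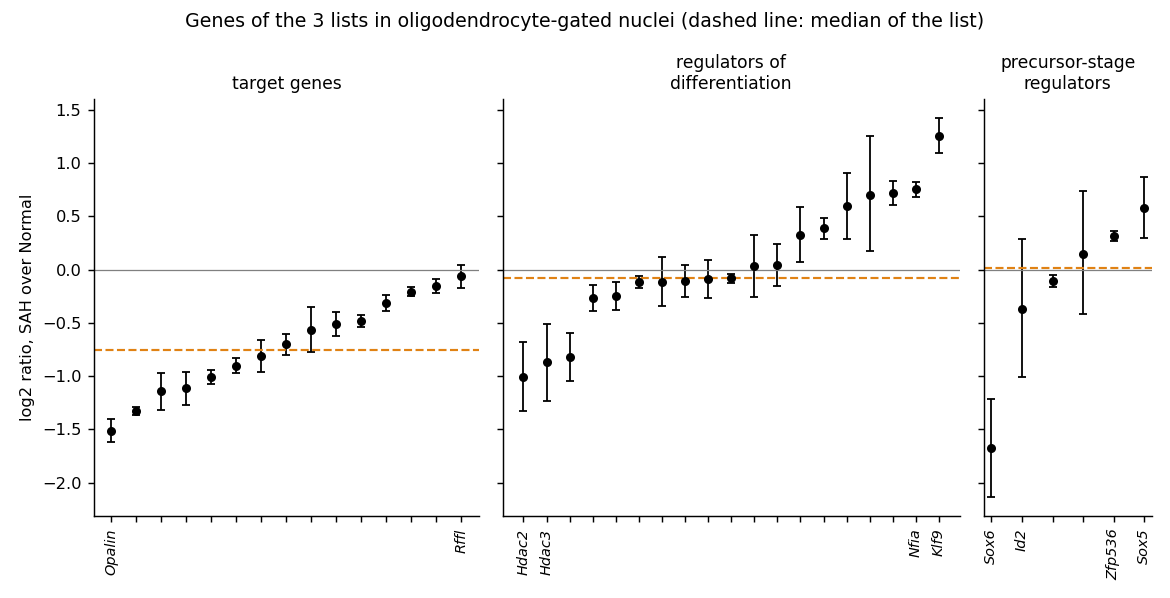
Log2 ratio of SAH over Normal in oligodendrocyte-gated nuclei for genes of 3 lists with at least 50 UMIs (15 of the 16 target genes), ranked within each list, with exact 95% intervals and the median of the whole list as a dashed line. Genes described in the text are named. Target genes lie below 0 with a median of -0.76, while the regulators of differentiation (-0.08) and of the precursor stage (0.02) spread to both sides.

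The genes most like each factor were sought by Pearson's r of log2(CPM + 1) over 34 clusters of both libraries, as a description. The clusters share 2 libraries and differ in depth, and each oligodendrocyte-like cluster came almost wholly from 1 library. For *Sox10* these were *Plxnb3* (0.977), *Cdh19* (0.974) and *Erbb3* (0.965), for *Olig1* *1700047M11Rik* (0.9503), *Sirt2* (0.937) and *Pllp* (0.936), and for *Olig2* *Gjc3* (0.973), *1700047M11Rik* (0.970) and *Snx33* (0.954). For *Myrf* they were *Csrp1* (0.946), *Gm48508* (0.942) and *Bcas1* (0.941), for *Nkx6-2* *Tmem98* (0.987), *Ppp1r14a* (0.973) and *Tprn* (0.971), and for *St18* *Sec14l5* (0.933), *Tspan15* (0.920) and *Gm41492* (0.917). *Nkx2-2* was nearest to *Gjc3* (0.966), to *Nkx2-2os* (0.963), which overlaps it on the opposite strand, and to *Olig2* (0.954). *Zfp488* was nearest to *Gm10863* (0.966), *Chst3* (0.946) and *Olig1* (0.911). *Sox8* was nearest to *Mbp* (0.897), *Gjc3* (0.868) and *1700047M11Rik* (0.866), with lower values than for any other factor. Among the 9 themselves, r ran from 0.724 (*St18* and *Sox8*) to 0.954 (*Olig2* and *Nkx2-2*).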

How the data were processed

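Single nuclei of 2 pools of 3 mice were sequenced as 1 library per group. The authors aligned reads to mm10 with Cell Ranger (6.1.2 in the file headers and methods, 5.0.0 in the submitters' processing notes), counted intronic reads too, and deposited raw UMI counts without normalization. The study's text states more nuclei for the control than for SAH, whereas the deposited files hold more for SAH. Its MAST tests over nuclei were not repeated, since nuclei of 1 library are not replicates.

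Nuclei with 300 to 7000 genes, under 10% mitochondrial and 3% haemoglobin UMIs and under 100000 UMIs were kept, less the top Scrublet scores (scanpy 1.11.5) at 0.8% per 1000 nuclei (1178 Normal, 2644 SAH). Oligodendrocytes had at least 1268.5 marker UMIs per 1000000 (8 genes, among them *Mbp*, *Mobp*, *Mog*, *Mag*, *Cnp*, *Aspa* and *Tspan2*) and few neuronal ones. Precursors had at least 3 of 7 markers. Leiden clusters (34, resolution 1.2, no integration, factors left out of the features) served as an alternative. On simulated counts for 11286 genes, 95.6% of intervals held the true ratio, which does not bear on spread between mice or libraries. Python 3.11.15, numpy 2.4.6, pandas 2.3.3 and scipy 1.17.1 were used.

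Named genes are the 9 factors, the 2 highest and lowest ratios of each list, and the 3 genes most like each factor. *Rffl*, *Mag*, *Mobp*, *Pdgfra*, *Gpr17*, *Enpp6*, *Bmp4*, *Neu4*, *Anln*, *Hapln2*, *Ush1c*, *Drd2*, *Adora2a*, *Myrfl* and the genes that lead the *St18* clusters were added after their values were seen. Some genes that the rule would name are not reported here. The factors and lists were chosen with earlier results of these data known. Alternatives changed the nuclei kept, gates, scaling, weighting and depth.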

Additional observations from a re-analysis of the deposited data

Results flagged for a closer look

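*St18* was flagged because its log2 ratio of SAH over Normal pointed different ways in different classes of nuclei, each beyond counting error. It was -0.14 in oligodendrocytes, -0.19 in the *Opalin* gate and -0.19 in the *Anln* and *Hapln2* gate, and 0.16 in inhibitory neurons. The difference between classes was not tested, since each group had 1 library.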

How the results depend on the processing

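No paired analysis was possible because each group had 1 library, and no replicate could be left out for the same reason. Of the log2 ratios in oligodendrocytes, *Sox10* ran from -1.25 to -0.92, *Olig1* from -1.69 to -0.93, *Sox8* from -1.75 to -0.95, *Nkx2-2* from -1.18 to -0.65, *Myrf* from -0.05 to 0.20, *Zfp488* from -0.45 to 0.58 and *St18* from -0.36 to -0.02 over 24 alternatives each. The value of *St18* moved beyond its interval under 8 of them, and its interval held 0 in the shallowest nuclei. Centring on the median of all genes, and thinning, each left 6 factors with an interval below 0 in place of 7. Reversals of sign were *Olig2* and *Nkx6-2* centred on genes of like length (0.17 and 0.19) and *Olig2* in nuclei of middle depth (0.19 [-0.55, 0.99]). None of these lay beyond counting error. That centring left 0 factors at least 2-fold lower in place of 3. The shallowest and the middle of 3 depth classes, with fewer nuclei each, left 4 factors with an interval below 0 in place of 7. In precursors 4 such factors became 1 with the cluster in place of the gate and 2 with *Pdgfra* or *Cspg4* required. Shares over all genes were not computed under these alternatives, so the counts are not compared with a background. Centred on the median of all genes, the median of the differentiation list was -0.0195 in place of -0.08. Centring on like length, the depth classes, the added precursor markers and the removal of shared barcodes were chosen after seeing the data. Precursors and *Zfp488* are limited by few UMIs.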
